A study of Homo sapiens with 22 samples.

Results

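The genes described here are 10 Wnt-driven stem cell genes: LGR5, ASCL2, EPHB2, EPHB3, CD44, SOX9, PROX1, TCF7, LEF1 and SP5. They were fixed by name out of 19974 protein-coding genes, and each was read over its RefSeq span (GRCh38.p14, the assembly of hg38) plus 50 kb on each side, called its window. Every entry of 3 deposited lists that overlapped a window by at least 1 bp was taken: 35 of 29858 MTBP peaks, 70 of 62504 H3K4me2 peaks and 6 of 2473 initiation zones. No value measured in these samples entered the rule, although the genes were chosen with earlier results of these data known.

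The cells were DLD-1, an established human colorectal adenocarcinoma line known to carry truncated APC and so to have constantly active Wnt signalling. In CUT&RUN an antibody directs a nuclease that frees nearby DNA for sequencing. FLAG-tagged MTBP was profiled in this way in 3 libraries of the C-terminally truncated line (genotype MTBP-mAID/MTBP-deltaC-FLAG, here deltaC), 3 of the full-length line (MTBP-mAID/MTBP-WT-FLAG, here WT) and 3 of an untagged control (MTBP-mAID/MTBP-mAID). H3K4me2 (2 libraries) and control IgG (2 libraries) were profiled in the WT line. EdU-seq, which sequences newly made DNA, was done in released deltaC cells, released WT cells and G1-arrested WT cells (3 libraries each), with 10 µM EdU for 3 hr, and release was into hydroxyurea and aphidicolin, so that the zones are early ones by design. All of these lines share an MTBP allele fused to the auxin degron mAID. The sources used here give neither the number of clones behind each line nor any auxin treatment. The untagged, IgG and G1-arrested libraries were not analysed here, so background signal at active chromatin was not measured.

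The lists hold 1 value per peak and line, with no values per library, so no error between cultures and no test between the lines could be given, and the depth is unknown. Of 11 colorectal epithelium markers, 8 had H3K4me2 within 1 kb of a gene end (CDX1, CDX2, VIL1, EPCAM, CDH1, KRT8, KRT18 and KRT20), and CDH17, LGALS4 and GPA33 had none. Of 15 markers of hepatocytes, blood, neurons, muscle and fibroblasts, 6 had it (APOA1, CD3E, RBFOX3, SNAP25, COL1A1 and PDGFRB). These shares are 72.7% and 40%, against 64.3% of all protein-coding genes, so the first is near that of all genes. Outside the Y chromosome, 28971 MTBP peaks are named for WT and 877 for deltaC, and all 35 peaks in the windows are named for WT.

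Wnt ligands stabilise beta-catenin, which enters the nucleus and activates genes through TCF/LEF factors bound to DNA. In the intestinal crypt this programme maintains the stem cells at the base, which carry LGR5 and ASCL2, and sets the positions of cells through EPHB2 and EPHB3. MTBP acts with its partner Treslin when the replicative helicase is activated at origins, and H3K4me2 marks active promoters and enhancers.

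Each of the 10 windows held MTBP and H3K4me2. An MTBP peak lay in 10 of 10 windows, against 80.7% of all protein-coding genes under the same rule, and an H3K4me2 peak in 10 of 10, against 91.3%. A window held a median of 3 MTBP peaks (1 to 7), against 2 for all genes, and a median of 6.5 H3K4me2 peaks (2 to 12), against 5. The member windows were also longer, with a median of 149 kb against 124 kb. Per 100 kb the medians were 2.08 MTBP peaks in member windows against 1.64 for all genes, and 4.22 H3K4me2 peaks against 3.49.

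The densest MTBP binding was at SOX9, with 4.74 peaks per 100 kb, a density that 10.1% of all genes reached or exceeded. The sparsest was at CD44, with 0.518 per 100 kb, which 77.6% reached or exceeded. The other 8 windows ran from 1.26 at PROX1 to 2.92 at SP5, so the list as a whole spans sparse to dense loci.

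On the gene span itself MTBP was found at 8 of 10 genes, against 53.7% of all genes, and H3K4me2 at 10, against 73.7%. These shares were not matched for span length. Member spans were longer, as the median windows of 149 kb against 124 kb include equal flanks. PROX1 and TCF7 had MTBP in the flanks alone. MTBP lay within 1 kb of an end of 6 of the 10 genes (LGR5, ASCL2, EPHB3, SOX9, LEF1 and SP5), against 42.8% of all genes, and H3K4me2 at 9, against 64.3%. TCF7 was the gene with no H3K4me2 within 1 kb of an end of its span, although a peak covered the first of the promoters RefSeq places within it. EPHB2, CD44 and PROX1 had H3K4me2 at an end and no MTBP there. An end lay in an initiation zone for EPHB2 and TCF7 (2 of 10, against 23.8% of all genes), which are among the 4 genes without MTBP at an end. No member therefore had both features, against 13.3% of all protein-coding genes.

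**Figure D1:**
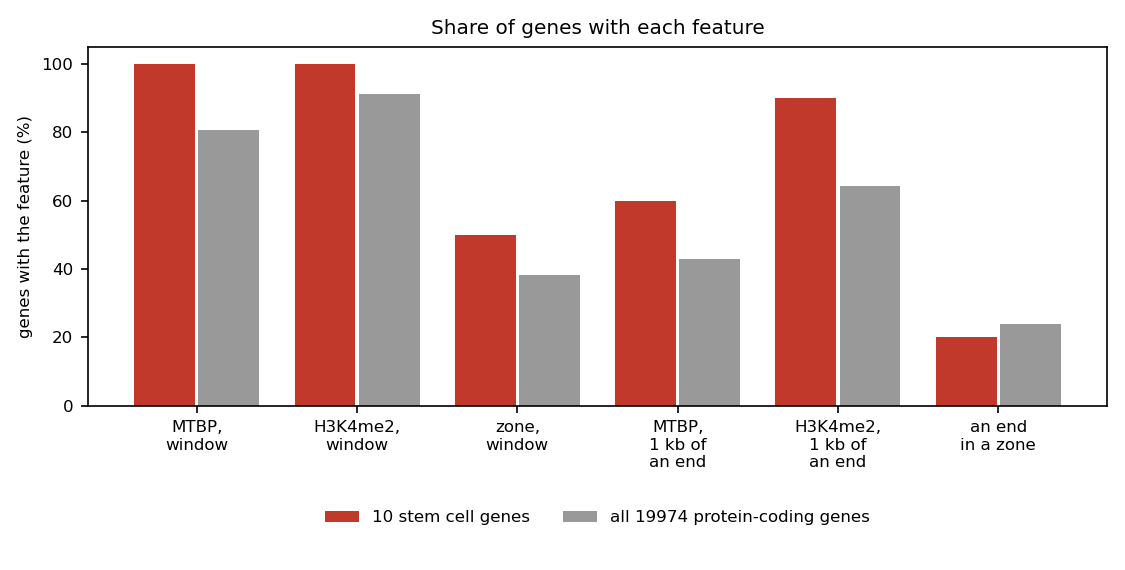
Share of genes with each feature, in percent, for the 10 stem cell genes (red, left of each pair) and all 19974 protein-coding genes (grey). The bars for MTBP near a gene end stand at 60 and 42.8, and those for an end in a zone at 20 and 23.8.

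**Figure D2:**
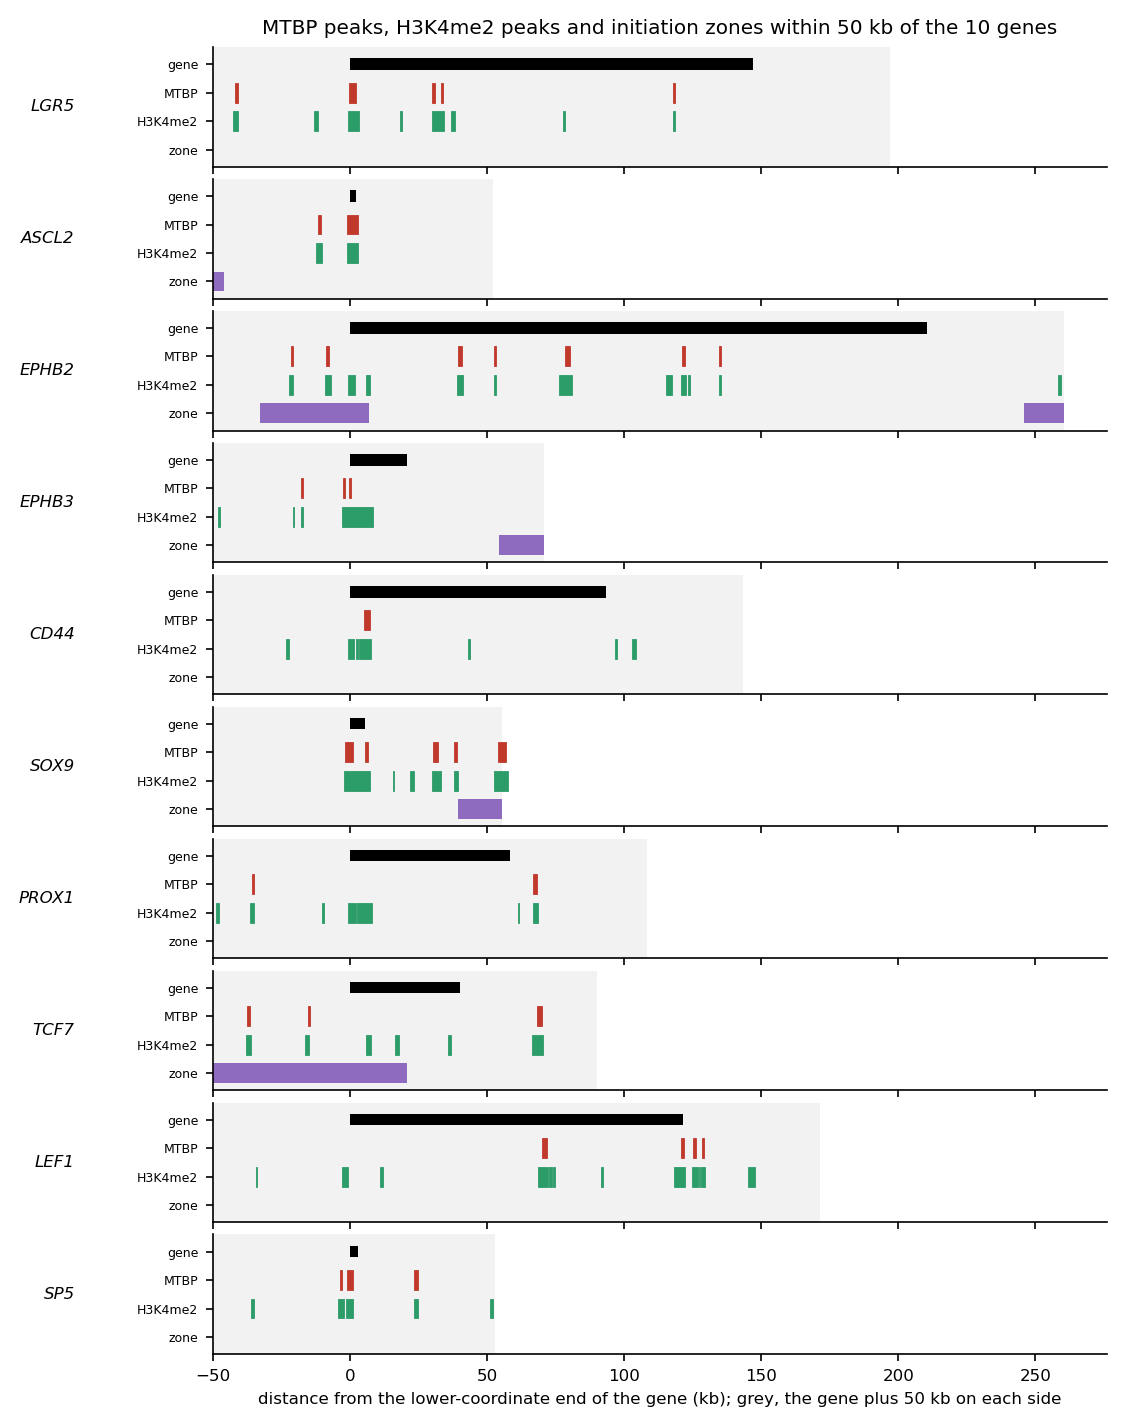
Map of the 10 windows, with distance in kb from the lower-coordinate end of each gene. Black bars are gene spans, red bars MTBP peaks, green bars H3K4me2 peaks and purple bars the parts of initiation zones inside the window, which is shaded grey. Zones are drawn in 5 panels, and they meet the gene itself at EPHB2 and TCF7.

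Among the surface receptors, LGR5 encodes the receptor for R-spondins that defines the cycling intestinal stem cell. Its span is chr12:71439129-71586310, and its window held 5 MTBP peaks, 8 H3K4me2 peaks and no zone. The peak over the lower-coordinate end (chr12:71438706-71441412, promoter class, score 201) had a signal of 580 in deltaC and 928 in WT, a log2 ratio of -0.68. It lay on a 4012-bp H3K4me2 peak of 42.4-fold enrichment, by far the highest of the 8.

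In the first intron of LGR5, another 4362-bp H3K4me2 peak (19.2-fold) carried 2 MTBP peaks. That at chr12:71472184-71473172 had the highest score of the locus (446), with a signal of 391 in deltaC and 693 in WT. Its neighbour at chr12:71469113-71469896 had a score of 140 and 97.0 in deltaC against 294 in WT. The pair thus differed in how much signal deltaC kept, with log2 ratios of -0.82 and -1.59.

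The remaining LGR5 peaks differed little between the lines. An intergenic peak 40930 bp from the gene (score 180) had 378 in deltaC and 412 in WT, and a peak in an Alu element inside the gene (score 121) had 209 in deltaC and 237 in WT. Their log2 ratios of -0.12 and -0.18 were at or above those of 93.5% and 92.3% of the list. The other 4 H3K4me2 peaks at LGR5, between 5.77- and 10.8-fold, had no MTBP. The nearest initiation zone was 4.03 Mb away, a gap that 7.99% of all protein-coding genes reached or exceeded.

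EPHB2 encodes a receptor tyrosine kinase for B-type ephrins, with a gradient along the crypt that is highest at the base. The gene (chr1:22710838-22921500) had the most MTBP peaks of the 10, 7 in a window of 311 kb, with 12 H3K4me2 peaks and 2 zones. A zone of 39.7 kb (chr1:22678033-22717740, score 275) covered its start and held 2 MTBP peaks. Its score was at or above those of 25.6% of zones in the list, which places it below the median.

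Inside the zone that covers the EPHB2 start, the MTBP peaks were upstream of the gene, where the start is at the lower coordinate. The one 7636 bp away (chr1:22701997-22703202, score 409) had 278 in deltaC and 682 in WT, and the one 20782 bp away (score 289) had 228 in deltaC and 420 in WT. The promoter itself lay under a 27.0-fold H3K4me2 peak with no MTBP, as did a 20.8-fold peak at the end of the zone.

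Within EPHB2 there were 5 MTBP peaks, and 4 of them were annotated to old repeats (MIR, MLT1D, L2c and MIRc) and the other to a simple repeat. The highest score of all 35 member peaks, 564, belonged to an enhancer-class peak at chr1:22831916-22833079, with 267 in deltaC and 747 in WT (log2 ratio -1.48). The peak in the L2c element (score 244), on a 40.5-fold H3K4me2 peak, had 267 in deltaC and 785 in WT, a ratio of -1.55. These strong internal sites kept about as little signal in deltaC as each other.

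The weaker EPHB2 sites went both ways. The MLT1D peak (score 150) had 55.5 in deltaC and 273 in WT, and the MIR peak of the enhancer class (score 222) had 439 in deltaC and 563 in WT. The simple-repeat peak at chr1:22845417-22846050, an (AC)n run with a score of 78, had 258 in deltaC and 178 in WT. With a log2 ratio of 0.54, it was the sole member peak higher in deltaC, against 4.52% of the list, and it also had the lowest score of the 35.

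The second EPHB2 zone (chr1:22956912-23027497, score 2085) began 35.4 kb past the gene and overlapped LACTBL1, TEX46 and KDM1A. The part of it inside the window held an H3K4me2 peak of 6.69-fold and no MTBP. Of the EPHB2 window, 54.3 kb or 17.5% lay in zones.

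EPHB3 encodes a second B-type Eph receptor of the crypt base, with overlapping roles. The gene (chr3:184561785-184582408) had 3 MTBP peaks and 5 H3K4me2 peaks. One MTBP peak lay on the promoter (chr3:184561196-184562063, score 211), with 205 in deltaC and 399 in WT, a log2 ratio of -0.96 that is close to the median of the list. It sat on a 9323-bp H3K4me2 peak, as wide as or wider than 99.7% of that list.

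Just upstream of EPHB3, a peak 1793 bp away (score 131) had 149 in deltaC and 277 in WT and lay on the strongest H3K4me2 peak of the window, at 44.1-fold. The third, 17329 bp away (score 289), had 94.3 in deltaC and 373 in WT, with a ratio of -1.97 on a 5.55-fold H3K4me2 peak. The score and the H3K4me2 fold thus ran in opposite order at these sites. A zone of 50.6 kb (score 537) began 33.8 kb beyond the higher-coordinate end and held 4 H3K4me2 peaks and 0 MTBP peaks over its whole length.

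The EPHB2 and EPHB3 promoters are set side by side because MTBP covered the EPHB3 promoter and not that of EPHB2, while H3K4me2 covered both at 27.0- and 27.5-fold. They are from RefSeq, GRCh38.p14, 250 bases before to 50 after the gene start, plus strand, 5′ to 3′, at chr1:22710588-22710887 and chr3:184561535-184561834, and G and C make up 83% and 69% of the letters. Neither holds CTTTGAA or CTTTGAT on either strand, so no letters are in capitals.
EPHB2: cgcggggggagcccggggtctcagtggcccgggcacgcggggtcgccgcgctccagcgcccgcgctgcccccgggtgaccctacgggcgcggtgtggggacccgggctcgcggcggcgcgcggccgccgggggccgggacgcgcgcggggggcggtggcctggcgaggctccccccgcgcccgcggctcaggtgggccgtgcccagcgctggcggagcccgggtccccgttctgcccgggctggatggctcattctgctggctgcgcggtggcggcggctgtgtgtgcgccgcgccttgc
EPHB3: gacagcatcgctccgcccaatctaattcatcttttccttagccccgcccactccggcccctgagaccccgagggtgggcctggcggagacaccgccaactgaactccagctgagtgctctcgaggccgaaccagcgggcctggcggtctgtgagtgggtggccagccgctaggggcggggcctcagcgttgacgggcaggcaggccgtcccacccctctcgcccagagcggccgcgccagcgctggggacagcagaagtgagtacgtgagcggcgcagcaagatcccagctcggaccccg

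CD44 encodes a cell surface receptor for hyaluronan that is a classical beta-catenin/TCF target in colorectal tumours. The gene (chr11:35139171-35232402) had 1 MTBP peak, the fewest of the 10, with 7 H3K4me2 peaks and no zone. The peak was in the first intron (chr11:35144077-35146474, enhancer class, score 255), with 515 in deltaC and 915 in WT, a log2 ratio of -0.83. It is a strong site, with WT signal at or above that of 93.7% of the list, on a 30.3-fold H3K4me2 peak.

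The CD44 promoter lay under a 28.6-fold H3K4me2 peak (chr11:35138308-35140593) without MTBP. Its enrichment was close to that of the intronic peak that did carry MTBP. The other 5 H3K4me2 peaks ranged from 4.15- to 13.1-fold. The nearest zone was 386 kb away.

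Among the transcription factors, ASCL2 is the basic helix-loop-helix factor that sets intestinal stem cell fate. Its window had 2 MTBP peaks and 2 H3K4me2 peaks, which coincided. The broad peak over the gene (chr11:2267242-2271235, promoter class, score 255), which spans all of ASCL2 (chr11:2268498-2270588), had 777 in deltaC and 1132 in WT. Its deltaC signal was the highest of the 35 and at or above that of 99.2% of the list.

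The second ASCL2 peak, 10521 bp from the gene (chr11:2256591-2257977, intergenic, score 434), had 128 in deltaC and 575 in WT. Its log2 ratio of -2.16 contrasted with -0.54 over the gene, although both sites had WT signal above the list median of 371. A 31.4-kb zone (score 744) reached into the window by 3.78 kb at its edge, and ended 46.2 kb from the gene. None of the MTBP or H3K4me2 peaks in the window lay in it.

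SOX9, a transcription factor of the crypt base and of Paneth cells, had the densest MTBP binding and the broadest H3K4me2. A single H3K4me2 peak of 9519 bp and 50.9-fold covered the whole gene (chr17:72121020-72126416) and carried an MTBP peak at either end. The peak on the promoter (chr17:72119024-72122095, score 244) had 514 in deltaC and 914 in WT, and that at the transcript's end (enhancer class, score 211) had 204 in deltaC and 355 in WT. The log2 ratios of the pair, -0.83 and -0.80, were nearly equal although the levels differed.

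On the higher-coordinate side of SOX9, 3 further MTBP peaks lay 24852, 32415 and 48596 bp away. The peak in a MIR element (enhancer class, score 372) had 329 in deltaC and 806 in WT, the next (score 233) had 236 in deltaC and 391 in WT, and the last (chr17:72175012-72177862, score 485) had 642 in deltaC and 1238 in WT. The last had the highest WT signal of the 35 and extended past the edge of the window. It was the SOX9 peak that lay in a zone, one of 41.4 kb (score 360) that began 34.0 kb from the gene.

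PROX1, a homeobox factor linked to beta-catenin/TCF activity in colorectal tumours, had strong H3K4me2 without MTBP at its lower-coordinate end. H3K4me2 peaks of 35.3- and 47.8-fold, 3145 and 5427 bp wide, lay at and just inside that end of the gene (chr1:213983151-214041510). Of the 3161 list peaks of over 40-fold, 86.3% carried MTBP, and in the 10 windows 7 of 8 did, the exception being this one. No MTBP peak overlapped the span, the nearest being 8506 bp away.

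The 2 MTBP peaks near PROX1 had low deltaC signal relative to WT. The one in an intron of PROX1-AS1 (chr1:213947236-213947968, score 312) had 105 in deltaC and 396 in WT, and the intergenic one (score 190) had 168 in deltaC and 558 in WT. Their log2 ratios, -1.91 and -1.72, gave PROX1 the lowest median of the 10 genes, -1.82. The nearest zone was 499 kb away.

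SP5 encodes a zinc finger factor of the Sp family that is a direct beta-catenin target and in turn tempers other Wnt targets. Its window had 3 MTBP peaks, 5 H3K4me2 peaks and no zone. The peak on the promoter (chr2:170714239-170716253, score 434) had 607 in deltaC and 1009 in WT, a log2 ratio of -0.73, with its summit 206 bp inside the gene (chr2:170715337-170718078). The authors annotated it to the start of LINC01124, whose end carried the second peak.

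That second SP5 peak (chr2:170711614-170712414, score 222) had 204 in deltaC and 355 in WT, and lay on the strongest H3K4me2 peak of all 70, at 56.5-fold. The third, 20690 bp from the gene in an L2b element (score 160), had 383 in deltaC and 463 in WT. All 3 were less than 2-fold lower in deltaC, as they were at CD44 alone among the other genes.

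The SP5 promoter is shown because MTBP covers it and because it holds TCF/LEF letters. RefSeq's sequence is from GRCh38.p14, chr2:170715087-170715386, plus strand, 5′ to 3′, and capitals mark each match to the motif CTTTGAA or to the motif CTTTGAT. Both strands were searched, so that the first motif also appears as TTCAAAG where it lies on the minus strand, and overlapping matches were each counted.
SP5: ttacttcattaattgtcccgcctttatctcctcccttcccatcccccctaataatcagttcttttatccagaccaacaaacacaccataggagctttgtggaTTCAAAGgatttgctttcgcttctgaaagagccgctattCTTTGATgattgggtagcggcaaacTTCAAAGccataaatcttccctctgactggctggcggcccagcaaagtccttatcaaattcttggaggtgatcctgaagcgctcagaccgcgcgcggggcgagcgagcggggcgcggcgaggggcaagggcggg
There were 3 matches, starting 148, 109 and 84 bases before the gene start. Of 34935 RefSeq promoters of the same length, 6.88% held at least 1 match and 9 (0.0258%) held 3 or more. The limit of 3 is the count at SP5 itself, so the second share is a description and no test. Promoter sequences were matched for 6 of the 10 genes (EPHB2, EPHB3, CD44, TCF7, LEF1 and SP5), and SP5 was the one with a match. Those of TCF7 and LEF1 lie inside the gene span, so the letters at the ends of these genes were not searched. A match is a description of letters, and its absence says nothing of TCF/LEF binding there or elsewhere in the locus.

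TCF7 and LEF1 encode TCF/LEF factors themselves and are also Wnt targets. TCF7 (chr5:134108218-134148210) lay partly in the strongest zone of the set, of 149 kb and a score of 4102, at or above 98.4% of zones (chr5:133980361-134129124). The zone also overlapped VDAC1, covered 50.7% of the TCF7 window and held 6 MTBP and 11 H3K4me2 peaks over its length. The TCF7 span nevertheless had 3 H3K4me2 peaks of 7.01- to 16.4-fold and 0 MTBP peaks.

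The nearest MTBP peak to TCF7, 14788 bp away in the zone (chr5:134092707-134093430, score 95), had 16.6 in deltaC and 197 in WT. Its log2 ratio of -3.49 was the lowest of the 35, and 1.45% of the list was as low or lower, and its deltaC signal was also the lowest. A second peak in the zone (score 170) had 124 in deltaC and 307 in WT. The third lay on the promoter of SKP1, a ubiquitin ligase subunit gene, with 313 in deltaC and 515 in WT.

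LEF1 (chr4:108047548-108168932) had 4 MTBP peaks, 12 H3K4me2 peaks and no zone. The nearest zone was 13.5 Mb away, a gap that 0.661% of protein-coding genes reached or exceeded, so LEF1 was the farthest of the 10 from any zone. MTBP was nonetheless at its start, in a peak at chr4:108168415-108169537 (promoter class, score 190) with 147 in deltaC and 449 in WT, on a 26.6-fold H3K4me2 peak.

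The other LEF1 sites differed in the signal deltaC kept. A peak in an exon of LEF1-AS1, 6966 bp from the gene (score 170), had 148 in deltaC and 461 in WT, and one between them (score 150) had 175 in deltaC and 302 in WT. The intronic peak at chr4:108117381-108119363 (score 150) had 357 in deltaC and 472 in WT, on the locus' strongest H3K4me2 peak (35.3-fold). The log2 ratio was -0.40 in the intron, against -1.60 at the start and -1.64 at LEF1-AS1.

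**Figure D3:**
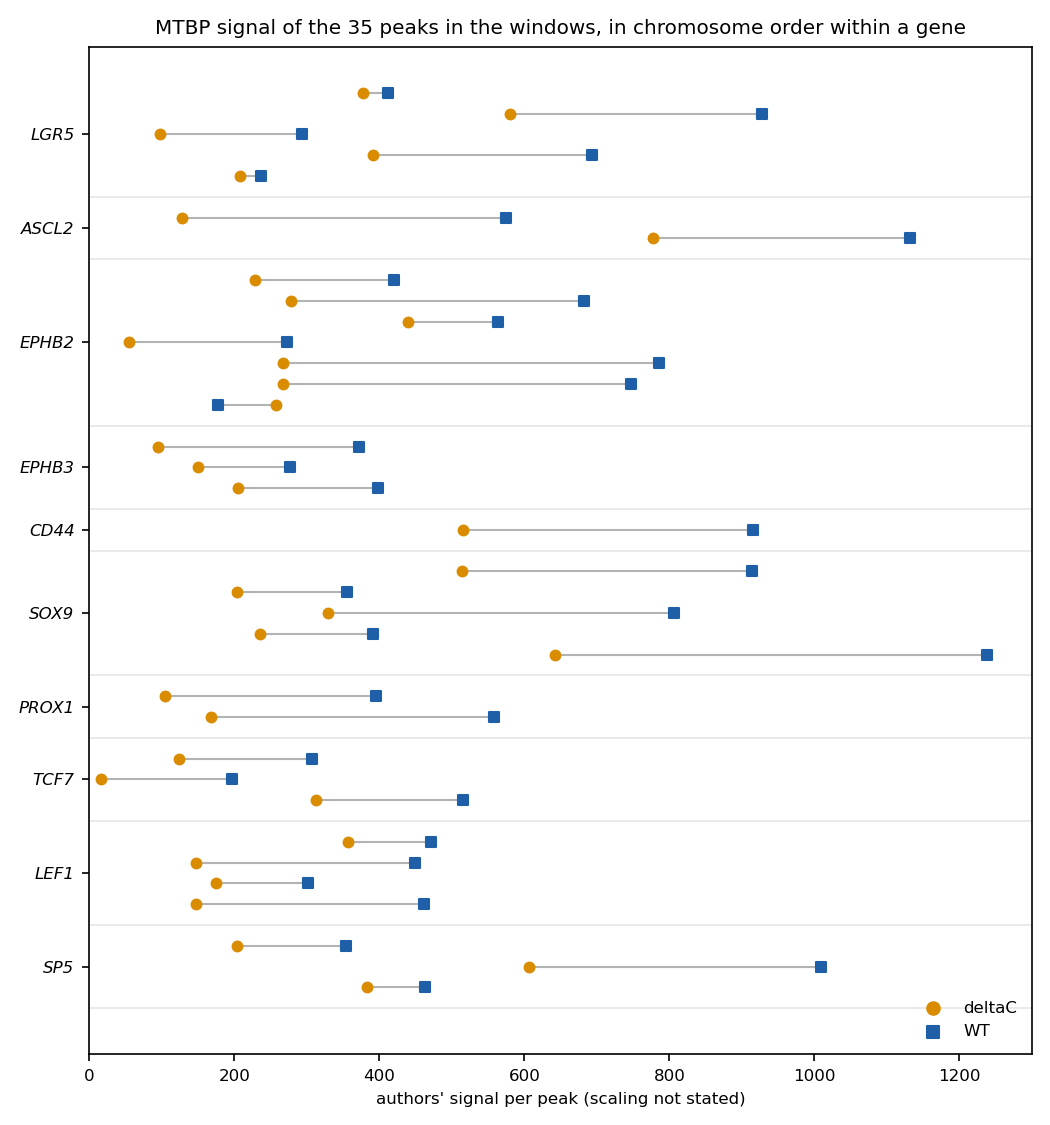
The authors' MTBP signal of each of the 35 peaks in deltaC (orange circles) and WT (blue squares), 1 line per peak and in chromosome order within a gene, with no replicate values. The deltaC circle lies left of the WT square at all peaks but the last of EPHB2, with 258 and 178.

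Over the 35 peaks the deltaC signal ran from 16.6 to 777 with a median of 236, and the WT signal from 178 to 1238 with a median of 461. The median log2 ratio was -0.88, against -0.93 for the whole list, so relative to the list the members stood at 0.06. The scaling of the authors' signals is not stated, so the general shift below 0 cannot be told apart from a scaling difference between the lines. All 35 peaks are named for WT. In the list the median log2 ratio was -0.95 for peaks named for WT and 0.31 for those named for deltaC. The shift therefore cannot be told apart from how peaks entered the list either. A decrease of at least 2-fold was found at 14 of the 35 peaks (40%), against 44.9% of the list. An increase of at least 2-fold was found at 0, against 0.419%. With ratios centred on the list median, 4 peaks were at least 2-fold lower (near ASCL2, EPHB3 and TCF7 and in EPHB2), against 7.64% of the list, and the simple-repeat peak of EPHB2 was the 1 at least 2-fold higher, against 3.73%. The uncentred shares are near those of the list, and deltaC and WT signals ran together across the 35 peaks (Spearman's rho 0.76, and 0.78 over the list), which come from the same libraries. Summed over a window, deltaC signal was between 0.286 of WT signal at PROX1 and 0.654 at SP5.

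A decrease of at least 4-fold was found at 3 peaks, near ASCL2, in EPHB2 and near TCF7, against 6.72% of the list. Values just inside the 2-fold threshold were those of SOX9 and EPHB2 at -1.29, and the first outside it were EPHB3's promoter at -0.96 and SOX9's most distant peak at -0.95. By class, 2 of 10 promoter peaks, 2 of 5 enhancer peaks and 10 of 20 others were at least 2-fold lower in deltaC, against 47.6%, 47.2% and 42.1% of the list. The 10 promoter-class peaks had a median ratio of -0.76 (list -0.97) and the 20 others -1.12 (list -0.88). With so few peaks, which share loci, the order of these classes is a description.

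The 7 peaks within 1 kb of an end of their own gene had higher medians than the rest, while those of EPHB3 and LEF1 and the SOX9 peak at the transcript's end lay below the medians of the 35 in both lines. Over the 7, the deltaC signal had a median of 514 and the WT signal 914, against 232 and 440 for the other 28 peaks in the windows. In the list, peaks near a protein-coding gene end had medians of 209 and 406. Of the 7, that of LEF1 was at least 2-fold lower in deltaC, against 48.7% of list peaks near gene ends, and the other 6 had ratios from -0.96 to -0.54.

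**Figure D4:**
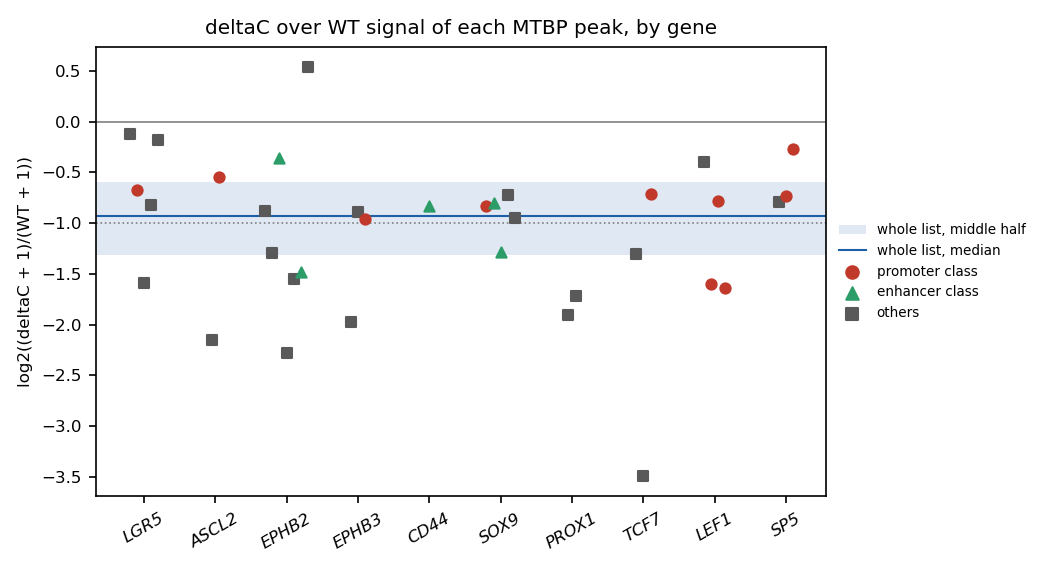
The log2 ratio of deltaC over WT signal (pseudocount 1) of each peak, by gene and by the authors' location class. The shaded band is the range between the quartiles of the whole list (-1.32 to -0.59), the blue line its median of -0.93, and the dotted line marks a 2-fold decrease. Values spread within a gene, as at EPHB2 from -2.28 to 0.54.

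All 35 MTBP peaks overlapped H3K4me2, against 98.9% of the list. In the other direction, 33 of 70 H3K4me2 peaks carried MTBP, or 47.1%, against 43.6% of the list. Those with MTBP had a median enrichment of 26.6-fold (5.55 to 56.5), against 8.96-fold (3.30 to 47.8) for those without, and a median width of 2050 bp against 1167 bp. The whole list was split in the same direction, with 23.0-fold against 9.35-fold and 2189 bp against 973 bp. Under 10-fold stood 25 of the 70, against 34.1% of the list, and 6 of the 25 carried MTBP, against 10.5% of such list peaks. Peaks of over 40-fold made up 8 of the 70 (11.4%), against 5.07% of the list. They lay at LGR5, EPHB2, EPHB3, SOX9 (2), PROX1 and SP5 (2).

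**Figure D5:**
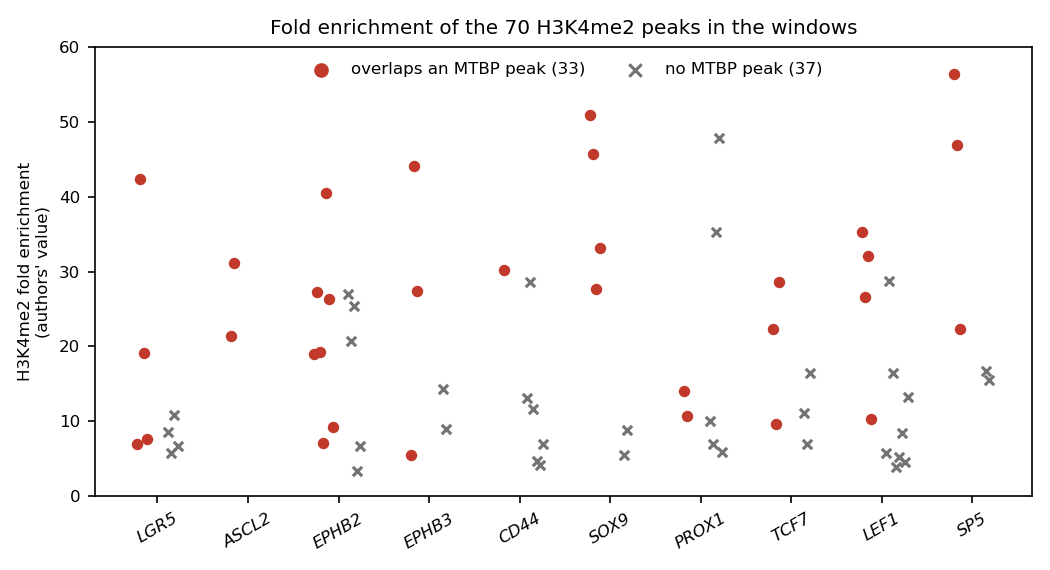
The authors' fold enrichment of the 70 H3K4me2 peaks, by gene, for peaks that overlap MTBP (33 red points) and peaks that do not (37 grey crosses). The cross at 47.8 is the PROX1 peak, and the crosses at 28.6 and 28.7 are the CD44 promoter and a peak beside LEF1.

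Initiation zones lay in 5 of the 10 windows (ASCL2, EPHB2, EPHB3, SOX9 and TCF7), against 38.1% of all genes, and touched the gene itself at 2 (against 24.5%). Zone scores ran from 275 to 4102 with a median of 641, against 628 for all zones. A zone contained 5 of the 35 (14.3%, against 23.0% of all MTBP peaks), of which 2 were near EPHB2, 2 near TCF7 and 1 near SOX9. Windows with a zone had 2 to 7 MTBP peaks (median 3) and those without had 1 to 5 (median 3), so the groups overlapped. The median gap between gene and nearest zone was 216 kb for the members, against 160 kb for all genes.

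The core genes of the pathway are given for scale. Of 20 Wnt receptors, destruction complex members, transducers and feedback genes, 13 had MTBP within 1 kb of an end, 20 had H3K4me2 there and 9 had an end in a zone. Over all protein-coding genes the shares were 42.8%, 64.3% and 23.8%. The windows of the 20 held a median of 5 MTBP peaks, against 2 for all genes. Both MTBP within 1 kb of an end and an end in a zone, not necessarily the same end, were found at 4. These were LRP6, a Wnt co-receptor, AXIN2, a feedback scaffold, and RNF43 and ZNRF3, which remove Wnt receptors. Of all protein-coding genes, 13.3% had both. None of the 20 lacked both MTBP and a zone in its window, against 18.2% of all genes. Where the highest count of a member was 7, AXIN2 had 16 MTBP peaks in its window.

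Among 13 relatives of the members, 6 had MTBP within 1 kb of an end and 3 an end in a zone. These shares, 46.2% and 23.1%, are near the 42.8% and 23.8% of all protein-coding genes. TCF7 and LEF1 had 3 and 4 MTBP peaks in their windows and not both features, whereas TCF7L2, a TCF factor of the gut epithelium, had both, with 9 MTBP peaks. The windows differ in length, and per 100 kb these counts were 2.14, 1.81 and 2.84. TCF7L1 had 6 MTBP peaks (2.17 per 100 kb, close to TCF7), with MTBP within 1 kb of an end and no end in a zone. SP5 had MTBP at the gene, as did its relative SP8, with 2 MTBP peaks, while its relative SP9 had neither MTBP nor a zone in the window. LGR5 had 5 MTBP peaks (2.02 per 100 kb), while LGR4, a relative with wide expression, had 9 (4.35) and LGR6 had 6 (2.66).

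Of 11 other genes known from intestinal stem cells, 4 had MTBP within 1 kb of an end (LRIG1, TNFRSF19, CDCA7 and SLC12A2), 9 had H3K4me2 there and 0 had an end in a zone. Over all protein-coding genes the shares were 42.8%, 64.3% and 23.8%. OLFM4, a marker of human crypt base cells, had neither MTBP nor a zone in its window. Of the 4 ephrin genes, whose products bind Eph receptors, EFNA1 had MTBP within 1 kb of an end and an end in a zone. EFNB1 had neither MTBP nor a zone in its window, as did 18.2% of all protein-coding genes. Of the 10 members, 6 had MTBP within 1 kb of an end, 2 had an end in a zone and 0 had both. Of the 11 colorectal epithelium markers, read for MTBP and zones after their values were seen, 5 had MTBP within 1 kb of an end, 9 had an end in a zone and 4 had both. Of the 15 markers of other cell types, 4 had MTBP within 1 kb of an end, 3 had an end in a zone and 1 had both. For MTBP near an end, an end in a zone and both, the shares over all protein-coding genes were 42.8%, 23.8% and 13.3%.

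No likeness of pattern across samples was computed, since there is 1 value for each of the 2 lines.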

How the data were processed

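MTBP CUT&RUN, H3K4me2 CUT&RUN and EdU-seq were read from 3 lists on hg38. Trim Galore, Bowtie2, MACS2 and HOMER were used, per the submitters' processing notes, and those notes give no version, order or pooling of replicates. The authors deposited a score and a signal per MTBP peak and line, and an average peak score per zone. In the H3K4me2 list, the authors' deposited values are a score, a fold enrichment (ratio) and −log10 q-values, of which the fold is reported. Positions are as deposited, with H3K4me2 starts counted from 1. Peaks on Y (10 MTBP, 116 H3K4me2) were left out of the comparisons.

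Python 3.11.15 with pandas 2.3.3 found overlaps of at least 1 bp and log2((deltaC + 1)/(WT + 1)), and the script was tested on simulated intervals. The planned count model needed values per library and was not run, so members are given as counts beside the whole list or all protein-coding genes on chromosomes 1 to 22 and X. A peak called 2-fold lower had a log2 ratio of -1 or below. Genes and promoters came from RefSeq, GRCh38.p14. All members with their MTBP peaks and zones were named. Genes of the relative, core Wnt, other stem cell and ephrin lists were named for having both features, or neither MTBP nor a zone in the window. Both features means MTBP within 1 kb of an end and an end in a zone, not necessarily the same end. Other list genes named (LGR4, LGR6, SP8, TCF7L1, genes with MTBP at an end, and the AXIN2 count) were chosen after their values were seen. A result that this rule would name is not reported here. The members and lists were chosen with earlier results of these data known. Alternatives covered the window, the peaks and zones kept, overlap, pseudocount, centring and fold.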

Additional observations from a re-analysis of the deposited data

How the results depend on the processing

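No paired analysis was possible because the lists hold no values per library, and leaving out replicates was not run for the same reason. Of 43 alternatives, 18 kept their value (a count within 1.5 times, or a median within -1.30 to -0.78, an order-statistic interval over peaks that does not measure cultures). With flanks of 0, 10 and 100 kb, the windows held 17, 23 and 63 MTBP peaks and 34, 46 and 112 H3K4me2 peaks, as the windows themselves shrink or grow. Of the MTBP peaks, 5, 8 and 33 were at least 2-fold lower in deltaC, and 0, 1 and 22 lay in a zone. The shares of the list are 44.9% and 23.0%. At 100 kb both counts stand above those shares, and at 0, 10 and 50 kb both stand below them. Zones met 2 windows at 0 and at 10 kb. Keeping MTBP scores of 190, the list median, or more left 22 peaks, 9 at least 2-fold lower and 3 in a zone. A limit at the H3K4me2 list's own median score left 34 peaks, and at that of the zones 3 windows with a zone and 2 MTBP peaks inside one. Centring on the list median turned the median log2 ratio to 0.056 and left 4 peaks at least 2-fold lower and 1 at least 2-fold higher (the last chosen after seeing the data). A 1.5-fold threshold gave 28 of the 35, and the share of the list at that threshold was not computed. The list's upper quartile of log2 ratios, -0.594, also passes that threshold, so most of the list does too. By overlap with the RefSeq promoter sequence, 2 of the 6 genes that have one carried MTBP. Over all 34781 promoter sequences on the chromosomes used, counted by sequence and not by gene, the share was 30.4%, so the 2 of 6 are near it. The LEF1 sequence lies inside the gene, so the peak at the LEF1 start was not counted, and those of TCF7 are also internal. LGR5, ASCL2 and SOX9, which had MTBP near an end, had no such sequence. An MTBP peak lay in 8 to 10 windows under every flank and score setting run. Depth and copy number were not measured, and a difference between the lines has no replicate check.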
